A study of Homo sapiens with 4 samples.

Results

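The G1 cyclins, CDK6 and the CDK inhibitors were examined as targets of Argonaute, in 303 of the 211947 regions of a list of AGO PAR-CLIP sites from HEK293 cells. A region was taken when it overlapped, on the same strand, the bounds of 1 of 8 genes on the human genome build hg19: CCND1, CCND2, CCND3, CDK6, CCNE1, CCNE2, CDKN1A and CDKN1B. HEK293 is a line derived from human embryonic kidney. PAR-CLIP feeds cells a photoreactive uridine, crosslinks RNA to protein with long-wave ultraviolet light, precipitates 1 protein and sequences the RNA bound to it. Per the labels, 3 libraries came from AGO1, in cells that stably expressed a His/FLAG/HA-tagged protein, fed 200 µM 4-thiouridine for 16 h and precipitated with a FLAG antibody. A further library came from AGO2, in cells fed 100 µM for 16 h and precipitated with an antibody to AGO2, and all were crosslinked at 365 nm. The series design names tagged AGO2 lines as well, while the labels of the AGO2 library name no tag. The list gives each region a single score and names no library, and neither the labels nor the file header state which of the libraries entered it. AGO1 and AGO2 therefore cannot be told apart, there are no replicates, and sequencing depth is unknown. The list also does not separate the amount of an mRNA in the cells from how densely Argonaute occupied it.

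Progress from G1 into S phase depends on cyclins that rise and fall and on the kinases they switch on. D-type cyclins activate CDK4 and CDK6, E-type cyclins activate CDK2, and both kinase complexes phosphorylate the retinoblastoma protein so that E2F transcription factors are released. The inhibitors p21, encoded by CDKN1A, and p27, encoded by CDKN1B, bind these complexes and restrain them. Argonaute proteins carry microRNAs, which pair through their seed, bases 2 to 8, mostly with sites in the 3′ untranslated regions of mRNAs. Several of the mRNAs described here are textbook microRNA targets.

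The microRNAs best known to act on these mRNAs in human cells are shown with their seeds, the bases through which microRNAs pair. The sequences are those of RefSeq on GRCh38.p14, with the seed in capitals, and microRNAs with the same seed follow each other. No hg19 sequence was used, so whether any region holds a match to these seeds was not examined.
hsa-let-7a-5p: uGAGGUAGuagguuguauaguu
hsa-miR-16-5p: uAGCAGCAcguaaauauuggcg
hsa-miR-15a-5p: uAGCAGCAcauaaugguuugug
hsa-miR-17-5p: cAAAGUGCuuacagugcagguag
hsa-miR-106b-5p: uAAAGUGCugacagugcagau
hsa-miR-93-5p: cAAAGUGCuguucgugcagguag
hsa-miR-221-3p: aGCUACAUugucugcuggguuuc
hsa-miR-222-3p: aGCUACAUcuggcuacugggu
hsa-miR-34a-5p: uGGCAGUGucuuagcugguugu
hsa-miR-26a-5p: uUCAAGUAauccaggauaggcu
hsa-miR-29a-3p: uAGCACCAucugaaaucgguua
As background, the let-7 family is known to act on CCND2 and CDK6, and the family of miR-15a and miR-16 on CCND1, CCND3, CCNE1 and CDK6. The family of miR-17, miR-106b and miR-93 is known to act on CDKN1A, and miR-221 and miR-222, which share a seed, on CDKN1B. Known targets of miR-34a include CCND1, CDK6 and CCNE2, miR-26a is known to act on CCND2 and CCNE2, and miR-29 on CDK6.

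All 8 genes held regions, from 9 in CCNE1 to 89 in CDK6, and their scores summed to 3066 on the authors' scale of 1 to 1000. By number of regions the order was CDK6 (89), CCND2 (74), CCND1 (43), CCNE2 (27), CDKN1A (22), CDKN1B (21), CCND3 (18) and CCNE1 (9). By summed score it was CDKN1B (738), CCND2 (678), CCND1 (605), CDK6 (582), CCNE2 (236), CDKN1A (114), CCND3 (65) and CCNE1 (48). CDKN1B was the sixth gene by number and came first by score. Without the highest region of each gene the sums were 556 in CCND2, 512 in CDK6, 420 in CCND1, 225 in CDKN1B and 204 in CCNE2. The inhibitors held nearly the same number of regions, 21 in CDKN1B and 22 in CDKN1A, with sums of 738 and 114. No region lay on the opposite strand within the bounds of any of the 8 genes.

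**Figure D1:**
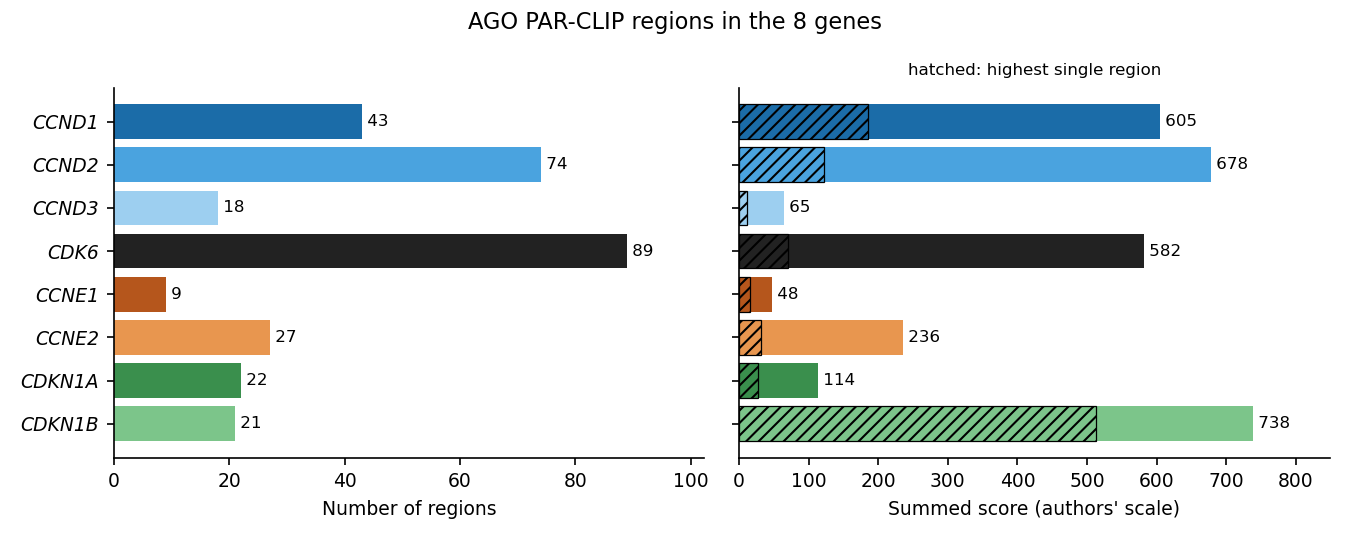
Number of regions (left) and summed score on the authors' scale (right) for each gene, with the score of the highest region hatched. CDK6 has the most regions, 89, whereas CDKN1B has the highest sum, 738, of which 513 come from 1 region.

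CCND1, which encodes cyclin D1, had 43 regions on the plus strand of chromosome 11 (chr11:69455873-69469242). Its 34 regions nearest the 3′ end followed each other with gaps of at most 174 nt, between 69466004 and 69469201. They covered 47.0% of these 3198 nt and held 93.7% of the gene's score. The highest region, chr11:69467973-69468140, was 168 nt wide with a score of 185, and its midpoint lay 1185.5 nt from the 3′ bound. The next, chr11:69466591-69466647, was 57 nt wide with a score of 128, and lay 2623 nt from that bound. These 2 regions held 51.7% of the CCND1 score, and the other 41 regions scored 50 or less. The region with that score of 50, chr11:69469148-69469201, lay 67.5 nt from the 3′ bound. The remaining region wider than 100 nt, chr11:69466305-69466419, had a score of 15.

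Upstream of this stretch CCND1 held 9 regions whose scores added up to 38 and reached 11 at most. Joined at gaps of at most 500 nt, they formed 4 groups along the gene, of which the most 5′ held 3 regions within 305 nt and began 51 nt from the 5′ bound. Whether these groups lie on exons was not examined, since no hg19 exon annotation was used.

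CCND2, which encodes cyclin D2, had 74 regions on the plus strand of chromosome 12 (chr12:4382902-4414522). Its 3′ stretch, from 4409053 to 4414519, held 59 of them in 5467 nt, with no gap over 213 nt, and ended 3 nt from the 3′ bound. Regions covered 56.3% of that stretch, the highest coverage among the 8 genes, and they held 93.4% of the gene's score. The highest, chr12:4410800-4411002, was 203 nt wide with a score of 122. It was followed by chr12:4410543-4410616 with a score of 55 and chr12:4413966-4414121, 156 nt wide, with a score of 40. Further regions wider than 100 nt were chr12:4411114-4411242, with a score of 24, and chr12:4413235-4413344, with a score of 23. The highest region held 18.0% of the CCND2 score, against 30.6% for the highest region of CCND1. It took 8 regions to reach 50% of the score in CCND2, and 2 in CCND1.

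The other 15 regions of CCND2 added up to a score of 45 and reached 8 at most. They were scattered upstream, and 4 of them lay within a 471-nt stretch that began 8 nt from the 5′ bound.

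CCND3, which encodes cyclin D3, had 18 regions on the minus strand of chromosome 6, all of them in the last 10% of its 113940 nt (chr6:41902671-42016610). The most 5′ of them lay 107213 nt from the 5′ bound and 6726 nt from the 3′ bound. No transcript annotation was used, so whether CCND3 transcripts start at this 5′ bound was not examined. Within 865 nt near the 3′ bound there were 12 regions with a summed score of 41. The highest region of CCND3, chr6:41904393-41904433, had a score of 12, and chr6:41903443-41903491 and chr6:41902731-41902775 had scores of 10 and 8. No CCND3 region was wider than 49 nt, and 10 of the 18 had a score of 1 or 2. Its summed score of 65 was about an order of magnitude below those of CCND1 and CCND2, 605 and 678.

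CDK6, the kinase that the D-type cyclins activate, had 89 regions on the minus strand of chromosome 7 (chr7:92234235-92465941). Nearly all lay at the 3′ end: 78 regions followed each other over 10230 nt, 4.42% of the length of the gene, and held 94.8% of its score. Only 12 of the 76044 runs in the list held more regions, where a run joins regions of 1 strand that are at most 1000 nt apart. This rank depends on that limit. At 500 nt the run of CDK6 held 51 regions, against 59 in CCND2, and its rank in the list was not measured. A gap of 862 nt divided the stretch of 10230 nt. Its 3′ part, from 92234341 to 92240906, held 51 regions with a summed score of 306, and its 5′ part, from 92241769 to 92244570, held 27 regions with a summed score of 246 in 2802 nt.

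The highest CDK6 region lay in the 5′ part: chr7:92244113-92244190, 78 nt wide, with a score of 70. The next were in the 3′ part and lay close together, chr7:92237933-92238019 with a score of 50 and chr7:92238199-92238286 with a score of 37. Between these lay chr7:92238034-92238157, 124 nt wide with a score of 14, and near the highest region lay chr7:92244252-92244359, 108 nt wide with a score of 10. No CDK6 region reached a score of 100. The highest held 12.0% of the score, the lowest such share among the 8 genes, and 12 regions were needed to reach 50%. The remaining 11 regions of CDK6 were spread over the rest of the gene, added up to a score of 30 and reached 9 at most.

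**Figure D2:**
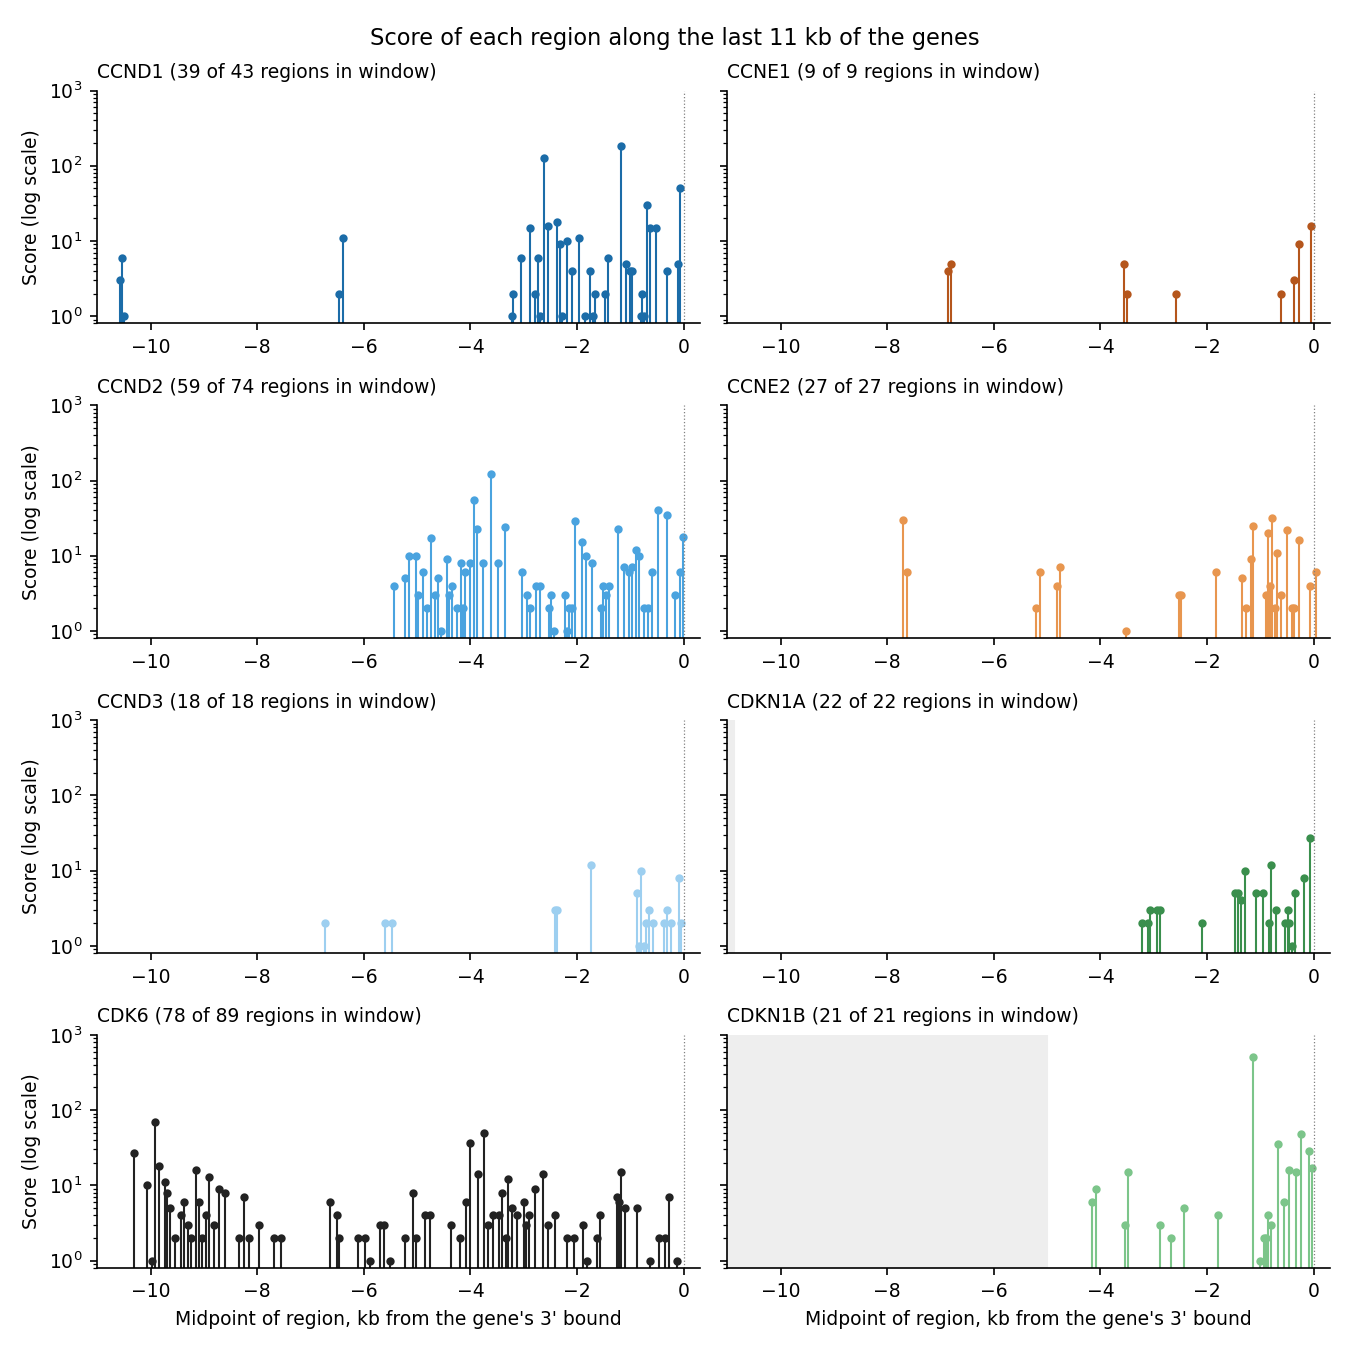
Score of each region (log scale) against the distance of its midpoint from the 3′ bound of the gene, in kb, over the last 11 kb; grey shading lies beyond the 5′ bound. CCND2 and CDK6 carry long rows of regions, that of CDK6 divided by a gap of 862 nt, CCND1 has 2 regions above 100, and CDKN1B has 1 region of 513 followed by lower ones up to its 3′ bound.

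CCNE1, which encodes cyclin E1, had 9 regions on the plus strand of chromosome 19 (chr19:30302901-30315215), the fewest of the 8 genes, with a summed score of 48. The highest, chr19:30315130-30315199, had a score of 16, and its midpoint lay 50.5 nt from the 3′ bound. It was followed by chr19:30314920-30314940, 21 nt wide with a score of 9, and by chr19:30308392-30308445 with a score of 5. The last 4 regions of CCNE1 spanned 604 nt and held 62.5% of its score, and the other 5 lay upstream as 2 close pairs and 1 region alone. With so few regions, these shares rest on small counts.

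CCNE2, which encodes cyclin E2, had 27 regions with a summed score of 236 on the minus strand of chromosome 8 (chr8:95892564-95907474). Between 95892484 and 95894416, 18 regions held 73.7% of the score. One of them, 82 nt wide with a score of 6, overlapped the gene by only 2 nt and reached past its 3′ bound. The highest region, chr8:95893328-95893367, was 40 nt wide with a score of 32. The next highest lay far from it, in the middle of the gene: chr8:95900253-95900291, with a score of 30, had its midpoint 7708 nt from the 3′ bound and 7202 nt from the 5′ bound. In CCND1, CCND2, CCND3, CDK6 and CCNE1 no region outside the 3′ run scored above 11. CDKN1A and CDKN1B had no region outside theirs. The run of CDKN1B spanned 83.6% of the length of the gene. It took in a region with a score of 15 whose midpoint lay 1524.5 nt from the 5′ bound. The third highest region of CCNE2 was chr8:95893674-95893724, with a score of 25. The 3 regions wider than 100 nt, from 101 to 117 nt, had scores of 22, 16 and 4.

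CDKN1A, which encodes p21, had 22 regions on the plus strand of chromosome 6 (chr6:36644237-36655116), all within 1 run of 3223 nt. The most 5′ of them had its midpoint 7659 nt from the 5′ bound. The last 1479 nt of the run held 16 regions and 86.8% of the score. The highest region, chr6:36654981-36655108, was 128 nt wide with a score of 27, and its midpoint lay 71.5 nt from the 3′ bound. The next, chr6:36654299-36654331 and chr6:36653786-36653884, had scores of 12 and 10.

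CDKN1B, which encodes p27, had 21 regions on the plus strand of chromosome 12 (chr12:12870302-12875305), and 1 of them outweighed all the others. This region, chr12:12874028-12874286, was 259 nt wide with a score of 513, 69.5% of the gene's sum. It was the highest and the widest of the 303 regions, and 28 regions of the whole list had a higher score. Its 1-nt inner position, as deposited by the authors, lay 131 nt from its 5′ edge, close to its middle. Its midpoint lay 1148 nt from the 3′ bound.

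Between this region and the 3′ bound CDKN1B held 12 more, and the 7 nearest the bound scored from 6 to 48. Among them were chr12:12875002-12875145, 144 nt wide with a score of 48, chr12:12874579-12874691, 113 nt wide with a score of 35, and the also wide chr12:12874792-12874897, with a score of 16. The 5 regions next to the highest one on its 3′ side scored only 1 to 4. Upstream of it 8 regions had scores from 2 to 15. In CDKN1B the last 10% of the gene is only 500.4 nt long, and it held 5 regions and 16.9% of the score.

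**Figure D3:**
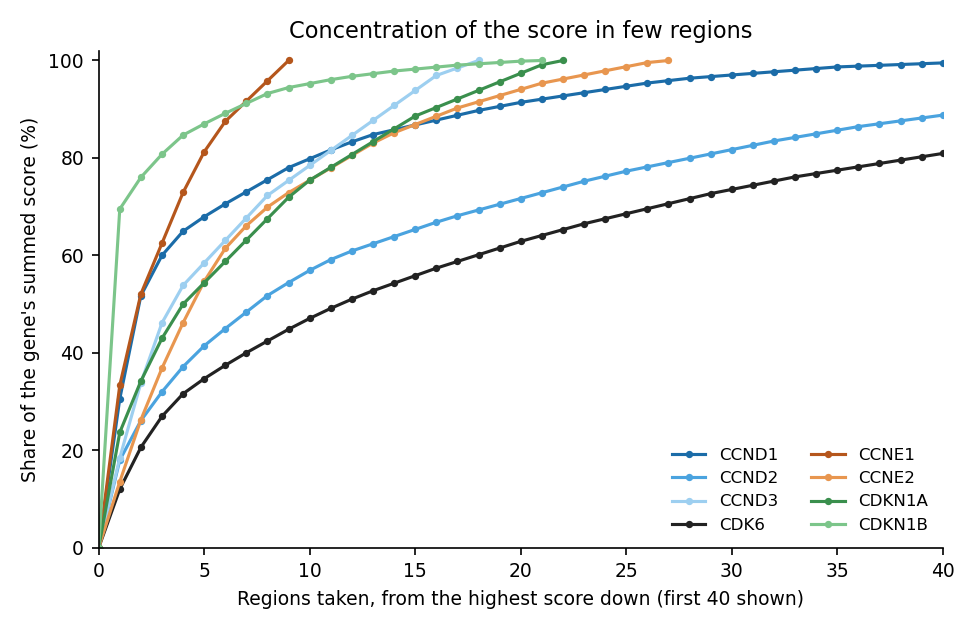
Cumulative share of each gene's summed score (%) against the number of regions taken from the highest score down, with at most 40 regions shown. CDKN1B starts at 69.5% with 1 region, CCND1 passes 50% with 2, and CDK6 starts at 12.0% and needs 12 regions to pass 50%.

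The genes thus carried their score in different ways. The share of the highest region ran from 12.0% in CDK6, 13.6% in CCNE2, 18.0% in CCND2 and 18.5% in CCND3 to 23.7% in CDKN1A, 30.6% in CCND1, 33.3% in CCNE1 and 69.5% in CDKN1B. The genes differ in the number of regions over which the score is divided, from 9 in CCNE1 to 89 in CDK6, so these shares are not directly comparable. CDKN1A, CDKN1B and CCNE2 had similar numbers of regions (22, 21 and 27), and their shares were 23.7%, 69.5% and 13.6%. Within the runs at the 3′ end, the top region of CDKN1B had a larger share than that in 99.4% of the 4320 runs of at least 10 regions in the list, where the median was 22.5% (interquartile range 16.8 to 31.0). The CDKN1B run had 21 regions, and the median of these runs was 16. The regions of the 8 genes fell into 34 runs, of which 7 held at least 10 regions (20.6%), where the share over all runs was 5.68%. These 7 were the runs that reached the 3′ end of every gene but CCNE1. The CDKN1B run spanned 83.6% of the length of its gene.

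Score per length of these runs allows the genes to be compared more directly, though the length of a run depends on the run gap. It was 177 per kb in CCND1, 176 in CDKN1B, 116 in CCND2, 54.0 in CDK6, 50.2 in CCNE2, 49.7 in CCNE1, 35.4 in CDKN1A and 24.7 in CCND3. The median over the 4320 runs of at least 10 regions was 32.9 per kb (interquartile range 20.5 to 55.2). The CCNE1 run, with 4 regions, was not among these 4320. CCND1 and CDKN1B stood above 98.2% of those runs each, CCND2 above 94.6% and CCND3 above 34.4%. The number of regions per kb varied less, from 5.02 in CDKN1B to 10.8 in CCND2, around a median of 6.26 over the 4320 runs. At the run gap used, CDKN1B thus had the fewest regions per kb of the 8 runs and, after CCND1, the highest score per kb. Both ranks changed with a gap of 500 nt. The CDKN1B run then held 14 regions with a summed score of 695 in 1810 nt. The CCND1 run stayed at a summed score of 567 in 3198 nt, so CDKN1B had the higher score per kb. CCNE1, with 4 regions in 604 nt, then had fewer regions per kb than CDKN1B.

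Regions gathered toward the 3′ end in every gene, but unequally. The last 10% of the gene held all 18 regions in CCND3 (Wilson 95% interval 82.4 to 100%), 88.8% in CDK6 (80.5 to 93.8), 63.0% in CCNE2 (44.2 to 78.5), 54.5% in CDKN1A (34.7 to 73.1), 45.9% in CCND2 (35.1 to 57.2), 44.4% in CCNE1 (18.9 to 73.3), 30.2% in CCND1 (18.6 to 45.1) and 23.8% in CDKN1B (10.6 to 45.1). The intervals cover counting error only. This order partly restates gene length, because the last 10% spans 23170.7 nt in CDK6, 11394 nt in CCND3 and 500.4 nt in CDKN1B. It also depends on the gene bounds, and whether transcripts fill these bounds was not examined. The first 50% of the gene held no region in CCND3 and CDKN1A and at most 12, in CCND2, in the others. A region lay with its midpoint within 100 nt of the 3′ bound, or past it, in 7 of the 8 genes. The exception was CDK6, whose last region, with a score of 1, lay 123 nt away. In CCNE1 and CDKN1A this terminal region was also the highest of the gene. These shares and counts were not measured in other genes, so whether they are particular to these 8 was not tested.

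**Figure D4:**
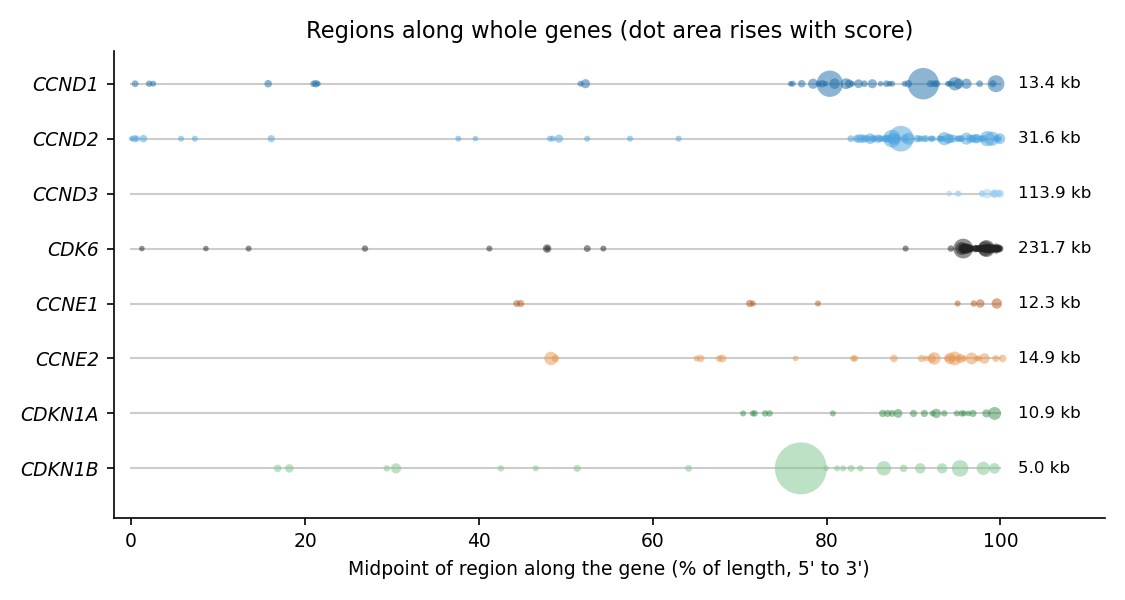
Midpoint of each region along the gene, in percent of its length from the 5′ to the 3′ bound, with the area of a dot rising with the score; gene lengths stand at the right. Dots crowd at the right end in all 8 genes, and CCND3 and CDKN1A have none in the first 50%.

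The position of high scores within the runs at the 3′ end also differed. When each run was split from 5′ to 3′ into 3 equal parts, CDK6 had 44.6% of its score in the 5′ part, 29.5% in the middle and 25.9% in the 3′ part. CCND1 had 37.9% in the 5′ part and 38.1% in the middle. CCND2 had 30.6%, 38.1% and 31.3% from 5′ to 3′. In CDKN1A the 3′ part held 61.4%, in CCNE2 70.2%, in CCND3 59.3% and in CDKN1B 93.6%, most of it from the region with a score of 513. The run of CDKN1B spanned 83.6% of its gene, so its parts are close to parts of the whole gene. The medians over the 4320 runs were 32.4%, 28.3% and 32.3%. The score of CCND2 was thus spread nearly evenly along its run. In 4 of the 7 genes with such a run the 3′ part held over 50%, as it did in 22.2% of the 4320 runs. This count depends on the run gap. With a gap of 500 nt the run was 1810 nt long in CDKN1B, against 4184 nt. It was 1479 nt in CDKN1A, against 3223 nt, 865 nt in CCND3, against 2393 nt, and 1933 nt in CCNE2, against 3609 nt. In CDKN1B the region scoring 513, of a run sum of 695, then lay outside the 3′ part, which held under 50%. For the other genes these parts were not measured at that gap.

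Regions continued hardly at all past the gene bounds. Within 5 kb beyond the 3′ bound of the 8 genes, only 1 further region was found on the same strand, in CDKN1B, 3691 nt away, with a score of 4. Within 5 kb before the 5′ bound there was also 1, 194 nt from CDK6, with a score of 2.

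Set against the rest of the list, the 303 regions were wider, closer together and had higher scores. Their median width was 38 nt (interquartile range 28 to 56), against 32 nt (25 to 43) for the other 211644 regions. Their median score was 4 (2 to 8), against 3 (2 to 5). By gene, the median score and width were 2 and 26.5 nt in CCND3 and 3 and 31.5 nt in CDKN1A. In the other genes they ran from 4 to 6 and from 34 to 48 nt. Scores of 10 or more were held by 2 of 18 regions in CCND3, 1 of 9 in CCNE1, 3 of 22 in CDKN1A and 13 of 89 in CDK6. The counts were 12 of 43 in CCND1, 16 of 74 in CCND2, 7 of 27 in CCNE2 and 8 of 21 in CDKN1B. Of the 303 regions, 132 scored at least 5 (43.6%, Wilson 95% interval 38.1 to 49.2), where the share over all regions was 27.0%. Scores of 10 or more were held by 62 (20.5%, 16.3 to 25.4), against 11.0% over all regions, and scores of 20 or more by 26 (8.58%, 5.92 to 12.3), against 4.09%. At 100 or more there were 4 (1.32%, 0.515 to 3.34), against 0.264% over all regions. These 4 regions, 2 in CCND1 and 1 each in CCND2 and CDKN1B, held 30.9% of the score of the 8 genes, where regions at 100 or more held 9.55% of the score of the whole list. No test was made of these differences, since regions of 1 mRNA share their source and are not replicates.

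**Figure D5:**
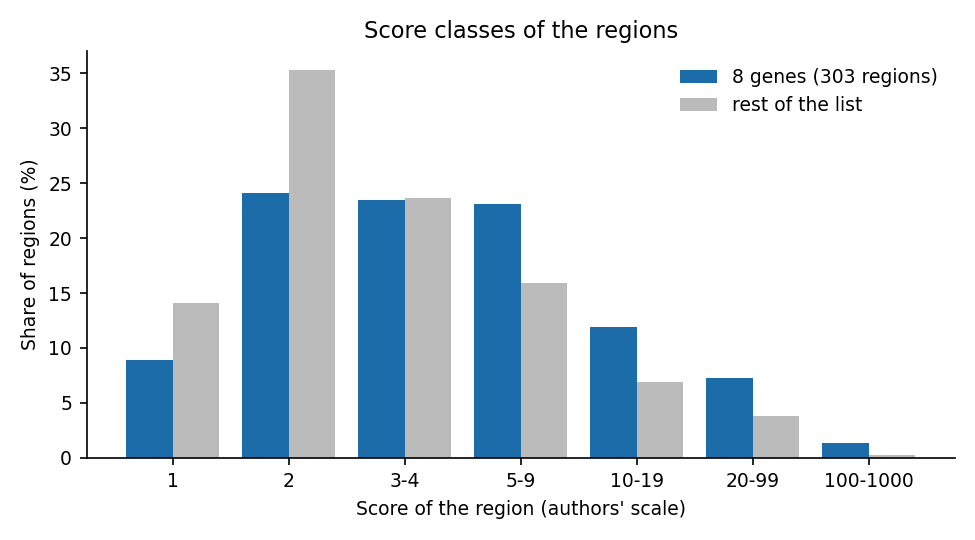
Share of regions (%) in classes of the score, for the 8 genes (left bars) and the rest of the list (right bars). Scores of 1 and 2 make up 8.91% and 24.1% in the 8 genes, against 14.1% and 35.3% in the rest, and every class from 5 upward is larger in the 8 genes.

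The higher scores went with greater width. Among regions of 15 to 29 nt the median score was 2 in the 8 genes and 2 in the rest. It was 3 in both at 30 to 49 nt, 6 in both at 50 to 99 nt, and 23.5 in the 8 genes against 25 in the rest at 100 to 300 nt. Within these classes the share of regions scoring 10 or more lay near that of the rest and slightly above it. It was 3.80% of 79 regions against 2.88% at 15 to 29 nt, and 11.0% of 127 against 8.05% at 30 to 49 nt. At 50 to 99 nt it was 37.0% of 81 against 32.1%, and at 100 to 300 nt 93.8% of 16 against 91.2%. These differences rest on few regions and were not tested. Regions wider than 100 nt made up 5.28% of the 303 regions (16 regions), where the share over all regions was 1.75%. Across the 303 regions width and score had a Spearman's rho of 0.608, against 0.453 in the rest, given as a description because regions of 1 gene share their RNA. Within genes rho ranged from 0.375 over the 9 regions of CCNE1 to 0.809 over the 21 of CDKN1B.

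A neighbour on the same strand lay within 100 nt for 256 of the 303 regions (84.5%, Wilson 95% interval 80.0 to 88.1), where the share over all regions was 53.4%. The median distance to the nearest neighbour, from edge to edge, was 18 nt, against 81 nt in the rest. A neighbour within 10 nt was found for 37.3% of the regions, against 16.8%. Whether such close regions are separate binding sites was not tested. The 1-nt inner position lay, on average, at 0.460 of the way from the 5′ to the 3′ edge on the plus strand and at 0.594 on the minus strand, against 0.454 and 0.585 in the rest. On each strand it thus leaned toward the lower genomic coordinate in the 8 genes as in the rest of the list.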

How the data were processed

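The deposited data used were 1 list of regions in BED format, of a series of 4 PAR-CLIP libraries (3 AGO1, 1 AGO2). Per the file headers, regions lie on hg19, belong to a library set named AGO_good and passed a filter whose name holds 0.05; per the submitters' processing notes, BWA 0.5.8c was used. Not given in the sources used here are the region caller, the libraries pooled and what the score means. The score deposited by the authors is a whole number from 1 to 1000, with 7 regions at 1000. Other values deposited by the authors are coordinates, printed counting from 1.

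Members were regions overlapping the gene bounds by at least 1 nt on the same strand. Members, gene lists and measures were chosen with earlier results of these data known. All 8 genes are named, with their 3 highest regions and any wider than 100 nt. Runs joined regions at most 1000 nt apart. Distances run from region midpoints to gene bounds. Sequences were copied from a RefSeq table. Counting functions were tested on 11941 simulated regions, and all 5 measures were recovered. The tools were pandas 2.3.3 and numpy 2.4.6 on Python 3.11.15, with scipy 1.17.1 for Spearman's rho and matplotlib 3.10.9 for plots. Seed matches in regions and other G1 genes were not analysed here, since both need hg19 sequence or annotation. Alternatives changed score minimum, score ceiling, membership, position measure and run gap.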

Additional observations from a re-analysis of the deposited data

How the results depend on the processing

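Of 83 alternative values, 59 planned and 24 chosen after seeing the data, 68 stayed within 1.5 times the value (counts and sums) or inside its Wilson interval (shares). With scores of 3 or more alone, the regions were 28 in CCND1, 8 in CCND3 and 57 in CDK6, their runs at the 3′ end held 22 in CCND1, 8 in CCND3, 12 in CDKN1A and 34 in CDK6, and 94.7% of the CDK6 regions lay in the last 10% of the gene. This setting removes regions of score 1 and 2. A run gap of 500 nt left 51 regions in the run of CDK6, and 2000 nt gave 7 in CCNE1. Values per kb and shares by part of a run were not among these alternatives. The CDKN1B sum fell to 325 with scores above 100 set to 100 and to 225 without its highest region, in each case below CCND1, CCND2 and CDK6 in that setting. The share of member regions at or above the score threshold (10) was 43.6% for a threshold of 5 and 8.58% for 20, where the shares over all regions were 27.0% and 4.09%. Between 1-nt positions, 74.3% had a neighbour within 100 nt, against 44.1% over the list. The seed-match alternatives were not run, since no hg19 sequence was used. No paired analysis was possible because the list names no library. The number of reads behind a score is unknown.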
